A study of Mus musculus with 12 samples.

Results

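The long terminal repeats (LTRs) of a pair of related mouse retroviruses were followed by direct RNA sequencing while P19 cells turned into neuron-like cells. Members were the repeat copies named RLTRETN_Mm (the LTR of the early transposon, ETn) or ERVB7_1-LTR_MM (an LTR of the ERVB7 group) to which at least 1 read with the quality tag PASS had aligned. There were 480 such copies, of 4667 copies of the LTR class with reads, and they held 5166 of the 18068 LTR reads (28.6%). ERVB7_1-LTR_MM had 231 copies and 3358 reads, and RLTRETN_Mm had 249 copies and 1808 reads.

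P19 is a wild-type mouse embryonal carcinoma line. Undifferentiated cells (D0) were compared with cells kept for 2, 4 or 6 days (D2, D4 and D6) in NDiff 227 medium with 500 nM retinoic acid, with 3 biological replicates per day and no untreated cells kept in parallel at the later days. In direct RNA sequencing a nanopore reads the RNA itself from its poly(A) tail towards its 5′ end, so that 1 read gives the transcript and the tail length. Kept reads per library ranged from 121480 (D2 replicate 1) to 620088 (D0 replicate 2), and D2 was the shallowest day. None of the 13 sequencing runs held more than 1 day, so day and run cannot be told apart. The names of all 3 runs of D0 also carry the mark D2, and 2 runs of D6 name no day, so the day of a library rests on its sample label.

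An LTR retrotransposon is an internal region between 2 LTRs, of which the first carries the promoter and the second the signal for adding the poly(A) tail. A full-length RNA starts inside the first LTR, passes through the internal region and ends inside the second. ETn elements encode no proteins of their own, are known for RNA in early embryos and embryonal carcinoma cells, and several mutant mouse alleles are known in which an ETn inside an intron is spliced to the exon before it and ends the transcript in its LTR.

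A few LTR stretches are shown because nearly all reads ended at the same place in them. The first is in an exon of the noncoding gene 4930509G22Rik, which begins at LTR base 21 and is at chr16:11191482-11191701 on the plus strand. The second is in the promoter window of Gm34581 at chr12:50980463-50980698 (plus strand), and the third in the promoter window of Gm38894 at chr6:124797111-124797343 (minus strand), both from RefSeq. All are on GRCm38 (mm10), 5′ to 3′. Capitals mark AATAAA, the common signal for 3′ end cleavage, and, where the stretch holds them, the AG at LTR bases 19 and 20.
RLTRETN_Mm_dup1163, LTR bases 21 to 240: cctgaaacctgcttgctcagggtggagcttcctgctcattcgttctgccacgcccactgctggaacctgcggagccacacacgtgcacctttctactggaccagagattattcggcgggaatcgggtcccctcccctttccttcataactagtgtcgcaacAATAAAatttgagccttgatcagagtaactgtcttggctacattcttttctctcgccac
ERVB7_1-LTR_MM_dup527, LTR bases 5 to 240: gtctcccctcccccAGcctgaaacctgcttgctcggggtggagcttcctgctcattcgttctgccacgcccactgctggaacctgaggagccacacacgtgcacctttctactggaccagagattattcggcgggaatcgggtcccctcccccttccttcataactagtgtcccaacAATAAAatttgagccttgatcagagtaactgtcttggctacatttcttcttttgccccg
RLTRETN_Mm_dup439, LTR bases 8 to 240: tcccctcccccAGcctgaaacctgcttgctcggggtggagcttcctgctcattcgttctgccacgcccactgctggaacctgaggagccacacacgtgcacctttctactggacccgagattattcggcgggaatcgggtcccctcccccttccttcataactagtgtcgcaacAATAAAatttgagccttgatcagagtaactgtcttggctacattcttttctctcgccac

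AATAAA stood at LTR bases 182 to 187 in all 3 stretches. The letters AATAAA were found on either strand in 19.6% of 32851 RefSeq promoter windows of 300 bases, so a match is a description of these windows and not a mapped signal. The 3 stretches were much alike. Up to base 206 ERVB7_1-LTR_MM_dup527 was identical to RLTRETN_Mm_dup439 at 99.0% of 199 aligned positions and to RLTRETN_Mm_dup1163 at 97.8% of 186. Up to base 240 the identity was 96.6% and 95.5%.

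Most alignments to the LTR began and ended at the same few places. Of the 5166 reads, 95.8% ended between 195 and 215 bases from the start of the copy, within 10 bases of the median of 205, and the median was 205 for ERVB7_1-LTR_MM and 206 for RLTRETN_Mm. The median copy was 321 bases long, so the rest of the copy beyond that point was rarely read. At their 5′ side 74.0% of the alignments began within 2 bases of the start of the copy, and a further 10.8% between 15 and 23 bases into it. An alignment cannot begin before the first base of the copy, so a read that runs in from upstream is also seen to begin at this edge. Whether the table counts positions from 0 is not stated, so these places are known to within 1 base.

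**Figure D1:**
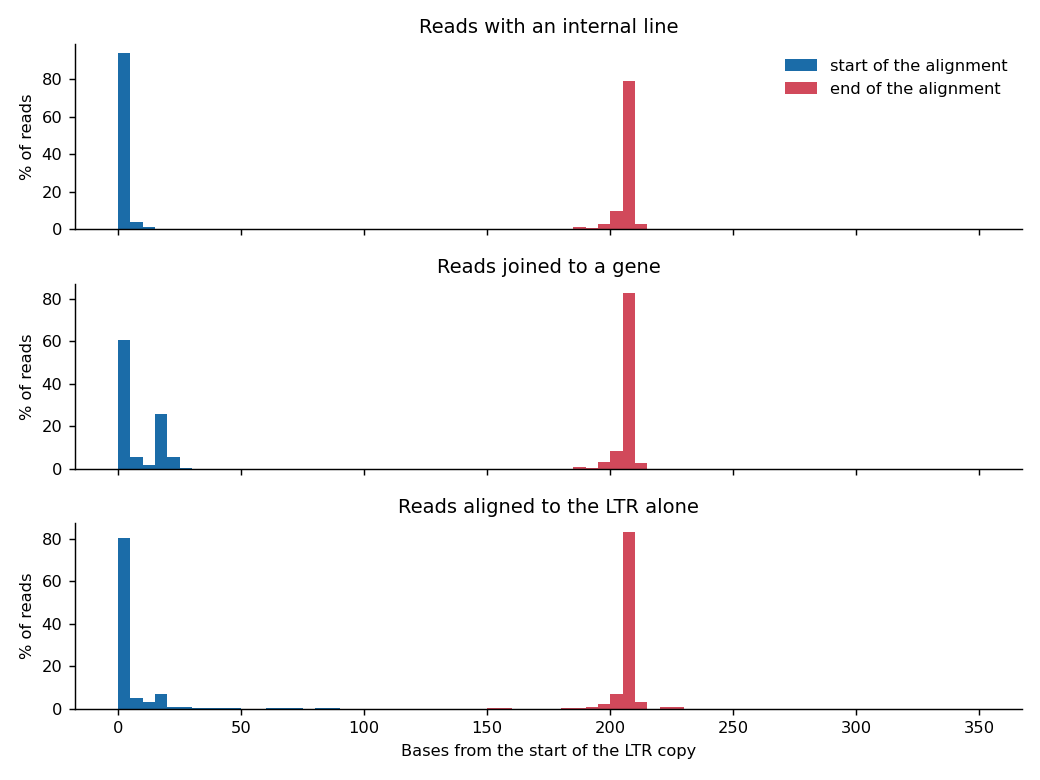
Where alignments to the LTR copies started (blue) and ended (red), in bases from the start of the copy, as a percentage of the reads of each kind over 12 libraries in bins of 5 bases. Ends fell between 195 and 215 bases in 95.3% to 97.6% of the reads of each kind, and the starts at 15 to 23 bases made up 31.0% of the reads joined to a gene.

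The reads could rarely be placed on a single copy. Mapping quality, the aligner's score for how unique a placement is, was 0 or 1 for 75.8% of the reads and at least 10 for 687 reads (13.3%). A copy's position below is therefore that of the mm10 copy to which the read was assigned, and the genome of the P19 cells themselves was not read. Of the 480 copies, 352 lay between genes, 101 in introns and 27 overlapped an exon of the GENCODE vM21 annotation. They were spread over 21 chromosomes, and 151 of them had 1 read.

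Both names fell during differentiation, and most of the fall was already there at D2. Levels are given as CPM, reads per 1000000 reads of a library whose size was scaled by the trimmed mean of M-values (TMM). They were 1232, 1336 and 1386 for ERVB7_1-LTR_MM in the 3 libraries of D0 and 496, 418 and 409 at D6. The D2 libraries held 666, 540 and 700 and the D4 libraries 481, 510 and 524. No library of a later day reached the lowest of D0.

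In fitted values, ERVB7_1-LTR_MM lay below D0 by 2.11-fold at D2, 2.60-fold at D4 and 3.02-fold at D6 (log2 fold changes -1.08 ± 0.12, -1.38 ± 0.11 and -1.59 ± 0.11, SE). The adjusted p at D6 was 1.75e-19 by limma-voom over 9463 genes and repeat names, with Benjamini-Hochberg adjustment. For comparison, 17.9% of those genes and names were called lower at D6, 12.3% at D4 and 5.44% at D2. Adjusted p-values at D2 and D4 were also under the threshold of 0.05.

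RLTRETN_Mm moved in the same direction. Its libraries held 711, 752 and 728 CPM at D0, 427, 286 and 353 at D2, 331, 229 and 275 at D4, and 216, 207 and 206 at D6, again with no overlap between D0 and any later day. Fitted log2 changes from D0 were -1.10 ± 0.14 (D2), -1.43 ± 0.13 (D4) and -1.80 ± 0.14 (D6) (SE; 3.48-fold lower at D6, adjusted p = 1.03e-17, limma-voom). With mapping quality of at least 10 the D6 change was -2.15 for RLTRETN_Mm and -3.03 for ERVB7_1-LTR_MM. In bulk RNA, fewer cells that make these RNAs and less of the RNA per cell cannot be told apart.

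None of the 5 other LTR names with most reads was called lower at D6. IAPLTR1_Mm, the LTR of the intracisternal A particle, was at 536 ± 15.8 CPM at D0 and 925 ± 31.8 at D6 (SD, n = 3 each), a rise of 1.73-fold (adjusted p = 2.08e-08, limma-voom). RLTR4_Mm rose 2.63-fold (adjusted p = 1.64e-07, limma-voom), and ORR1B1, MTD and ORR1A2 were not called (0.23, 0.35 and -0.27, log2). Within each library the log2 ratio of ETn and ERVB7 reads to all other LTR reads was -0.43, -0.30 and -0.41 at D0 and -2.41, -2.64 and -2.64 at D6. The difference was -2.18 (exact permutation p = 0.10, two-sided, the smallest that 3 against 3 libraries can give). All other LTR names together went from 2667 ± 129 CPM at D0 to 3836 ± 62.0 at D6 (SD, n = 3), so the difference also holds their rise.

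**Figure D2:**
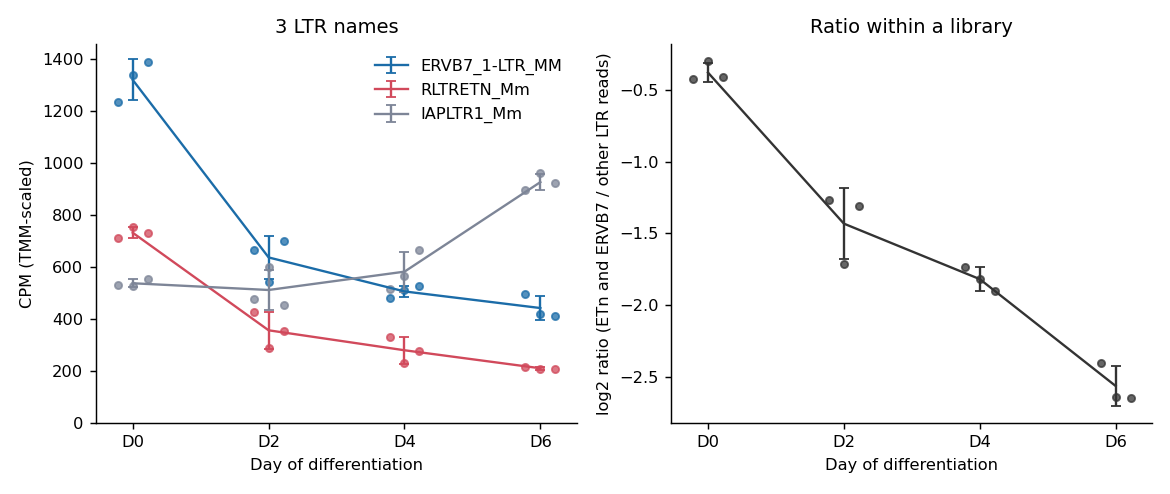
Left, CPM (TMM-scaled) of ERVB7_1-LTR_MM, RLTRETN_Mm and IAPLTR1_Mm by day; right, the log2 ratio of ETn and ERVB7 reads to the other LTR reads of the same library. Points are libraries, lines and bars the mean and SD of 3; the ratio fell from a mean of -0.38 at D0 to -2.56 at D6.

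Reads were concentrated on a few copies. Only 15 copies (10 ERVB7_1-LTR_MM and 5 RLTRETN_Mm) had 30 or more reads, the minimum for a test, and they held 57.8% of all reads. The 6 copies with most reads formed 3 pairs in which the LTRs of each pair lay 4909 or 4915 bases apart, the arrangement of an element with both of its LTRs. These 3 pairs held 46.4% of the reads.

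The pair with most reads joined one LTR of each name inside an intron of Slc4a4, a sodium bicarbonate cotransporter. They were RLTRETN_Mm_dup344 (chr5:89203777-89204097, 412 reads) and ERVB7_1-LTR_MM_dup162 (chr5:89209013-89209330, 426 reads). The second pair, on the same chromosome between genes, was ERVB7_1-LTR_MM_dup160 (chr5:88162459-88162775, 397 reads) and ERVB7_1-LTR_MM_dup161 (chr5:88167685-88168001, 432 reads). The third was ERVB7_1-LTR_MM_dup592 (chr13:113718414-113718729, 283 reads) and ERVB7_1-LTR_MM_dup593 (chr13:113723639-113723954, 447 reads), also between genes. The share of reads on the 3 pairs was 45.0% ± 0.18 in D0 libraries and 47.8% ± 2.54, 43.1% ± 6.23 and 53.8% ± 0.87 in those of D2, D4 and D6 (SD, n = 3). D2 and D6 did not overlap with D0 (exact permutation p = 0.10 each, the smallest possible), whereas D4 did (exact permutation p = 0.70).

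Single copies fell as the names did. ERVB7_1-LTR_MM_dup593 had 68, 98 and 80 reads at D0 and 23, 32 and 17 at D6, and was 2.63-fold lower (adjusted p = 5.99e-07, limma-voom over 12477 contigs). RLTRETN_Mm_dup344 had 73, 94 and 72 reads at D0 and 15, 30 and 23 at D6, 2.66-fold lower with an adjusted p of 4.36e-07. RLTRETN_Mm_dup1075 (chr14:18179373-18179693, 214 reads, between genes) had 36, 45 and 39 at D0 and 6, 14 and 6 at D6, 3.49-fold lower. In all 3 copies the D6 read numbers stayed below the lowest of D0.

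RLTRETN_Mm_dup13 (chr1:7620706-7621026, between genes) fell 4.26-fold, from 15, 21 and 24 reads to 2, 3 and 5. RLTRETN_Mm_dup1163 (chr16:11191462-11191782, the copy with the exon of 4930509G22Rik) went from 15, 10 and 6 reads to 0, 1 and 2. ERVB7_1-LTR_MM_dup274 (chr7:85158069-85158386) went from 7, 11 and 4 reads to 0, 0 and 1. Both were called lower, but they reached the minimum of 30 reads largely through their D0 reads, and with 3 and 1 reads at D6 their fitted folds depend on the pseudocount and are not given.

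The 15 tested copies were those with 30 reads over all 12 libraries, and 7 of them had fewer than 30 outside D0, so they passed only through the day where they were high and their calls are no support for a fall. The 8 copies with 30 or more reads outside D0 gave 5 lower calls at D2, 8 at D4 and 8 at D6. Of all 15, 5 were called lower at D2, 10 at D4 and 11 at D6, and none was called higher, nor was any above 0 at an unadjusted p under 0.05. The contigs called lower over the whole series were 3.73% at D2, 9.76% at D4 and 14.7% at D6, and those called higher 3.53%, 10.5% and 15%. Without D2 replicate 2 no copy was called lower at D2 (limma-voom, 7 of 14 lower at an unadjusted p under 0.05). The copies not called at D6 had 30 to 41 reads over the 12 libraries.

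**Figure D3:**
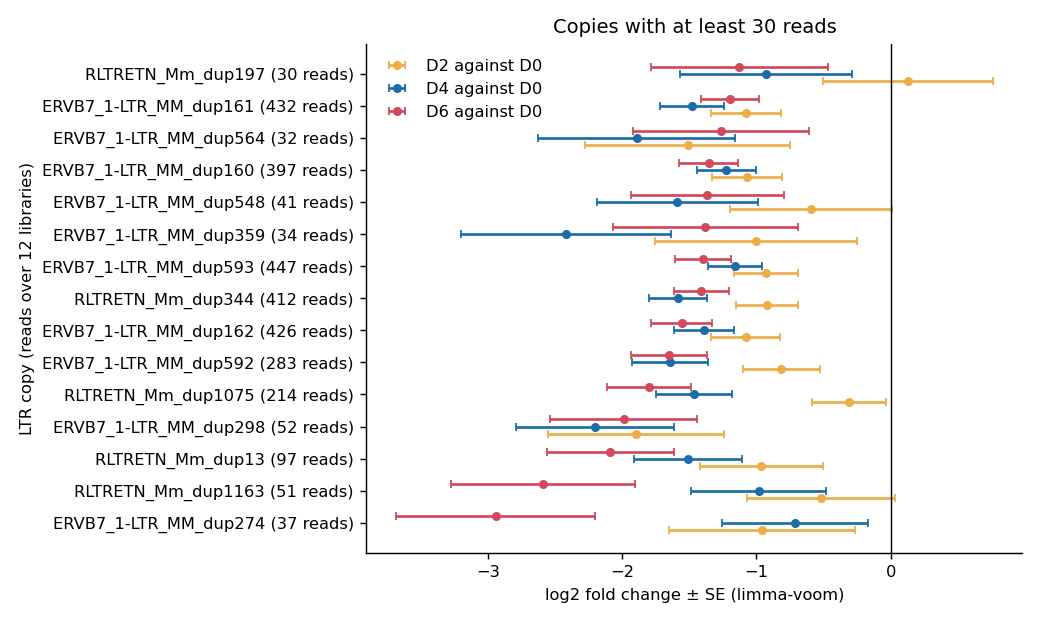
Fitted log2 fold change ± SE (limma-voom) of the 15 copies with at least 30 reads at D2, D4 and D6 against D0, with each copy's reads over 12 libraries in parentheses. The 8 copies with 30 or more reads outside D0 were called lower at D6, and the other 7 passed the minimum only with their D0 reads.

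Most reads held more than LTR sequence. The table has 1 line for each alignment, so that other lines of the same read show what lies upstream of its LTR end. In 2526 reads (48.9%) another line was on an internal part of these elements, the contigs named MMETn-int or ETnERV-int. In a further 1530 reads (29.6%) another line was on a transcript of a gene, outside the elements themselves. A read with both an internal line and a gene line was counted with the former. Of the rest, 953 reads (18.4%) had the LTR alone, and 157 had other partners. These kinds of read were defined after the data had been seen.

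As shares of the LTR reads, those with an internal line were lower at D6 than at D0 and those joined to a gene higher. The former made up 47.7%, 64.0% and 60.3% of the LTR reads in the D0 libraries and 25.8%, 27.5% and 21.6% in those of D6. The latter made up 17.9%, 16.7% and 16.7% at D0, 30.8% ± 3.61 at D2, 47.2% ± 5.0 at D4, and 61.6%, 58.0% and 62.1% at D6. The shares of D0 and D6 did not overlap for either kind (exact permutation p = 0.10 each, the smallest possible). With mapping quality of at least 10 the share joined to a gene still rose, by 21.4 in place of 43.5 percentage points.

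In CPM, those with an internal line fell from 927, 1336 and 1274 at D0 to 183, 172 and 133 at D6, which was 7.26-fold lower in the fit (log2 -2.86 ± 0.15, adjusted p = 7.17e-25, limma-voom). They were already 2.52-fold lower at D2 and 4.08-fold lower at D4. Reads joined to a gene were at 349, 349 and 354 at D0 and 438, 362 and 382 at D6. Fitted against D0, they differed by -0.26 (D2), 0.07 (D4) and 0.15 ± 0.13 (D6) on the log2 scale, and no day was called (adjusted p = 0.36 at D6, limma-voom, with unadjusted p-values of 0.092, 0.61 and 0.23). Leaving out 1 library, these values ranged from -0.42 (without D2 replicate 1) to -0.11 (without D2 replicate 2) for D2, from 0.03 to 0.13 for D4 and from 0.08 to 0.21 for D6.

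Reads not counted as joined to a gene fell more than the names as a whole. With the gene-joined reads left out, ERVB7_1-LTR_MM fell by 2.79 and RLTRETN_Mm by 2.63 at D6 (log2), where the kind of read left out was chosen after the data had been seen. Reads of the LTR alone went from 441 ± 122 to 78.5 ± 10.6 CPM. Reads on the internal names with no line on either LTR, which were not among the members, went from 3517 ± 794 at D0 to 476 ± 62.4 at D6. Aligned reads of nuclear transcripts were somewhat longer at D6 (median span 747 to 829 nt per library) than at D0 (649 to 729 nt), and D0 replicate 1, with the shortest reads, had the lowest share with an internal line among the D0 libraries. The part of read length in these shares was not tested.

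IAPLTR1_Mm, counted the same way, had an internal line in 57.4% ± 10.7 of its reads at D0 and 72.3% ± 5.54 at D6. Its reads were joined to a gene in 1.16% ± 0.71 at D0 and 0.82% ± 0.24 at D6. The difference between ETn and ERVB7 reads and IAPLTR1_Mm reads in the share with an internal line moved from -0.09 to -47.3 percentage points (exact permutation p = 0.10).

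**Figure D4:**
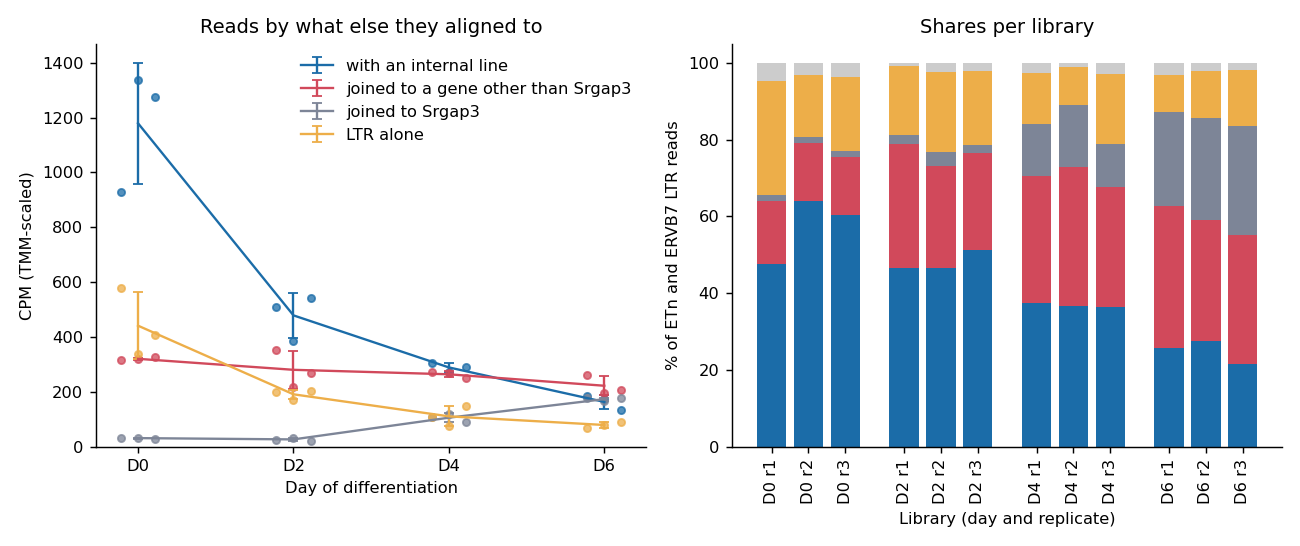
ETn and ERVB7 LTR reads by what else the read aligned to: left, CPM (TMM-scaled) by day, with points for libraries and lines and bars for the mean and SD of 3; right, the share of each kind in each library, with grey for other partners. Reads with an internal line fell from 1179 to 163 CPM between D0 and D6 while those joined to Srgap3 went from 30.6 to 173.

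The joins fell at the ends of exons. Of 1530 gene alignments on transcripts with at least 2 exons, 86.9% ended within 10 bases of the annotated end of an exon before the last one, whereas 6.14% of the bases of those transcripts lie so close to such an end. Without Srgap3, the gene with most joined reads, the share was 82.9%. In 1063 of 1546 gene lines the quality tag marked an alignment that stops well before the 3′ end of the read. Abundant transcripts were rare among them, since 16 joined reads (1.05%) were on the 100 genes with most reads, which held 35.7% of all nuclear reads.

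The LTR alignments of most joined reads began at one of 2 places. In 47.8% the LTR alignment began within 2 bases of the start of the copy, as it did in 89.6% of the reads with an internal line. This place is the edge of the copy, where a join further upstream would also show, so it does not locate the join. In 31.0% the LTR alignment began 15 to 23 bases in, next to the AG at bases 19 and 20 of the printed stretches, against 0.32% of the reads with an internal line. A further 20.3% began between these places, at 3 to 14 bases. The annotated exon of 4930509G22Rik starts at base 21 of its LTR. No member copy lies inside 25 of the 26 genes with 10 or more joined reads (Slc10a7 was the exception). Annotated copies without reads are not members and were not counted. Of the joined reads, 6.86% were assigned to a copy on the gene's own chromosome.

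The 26 genes are described here by rank of joined reads, were found after the data had been seen, and get no test. They held 1262 of the 1530 reads, and 133 of the 205 genes had a single read. In 20 of the 26 at least 80% of the gene alignments ended at an exon end.

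Srgap3, a GTPase-activating protein of the Slit and Robo pathway in neurons, held 372 joined reads. They numbered 14, 17 and 14 in the D0 libraries, 3, 8 and 4 at D2, 27, 51 and 39 at D4, and 49, 81 and 65 at D6, or 30.6 ± 1.80 CPM at D0 against 173 ± 5.95 at D6. Every D4 and D6 library was above every D0 library. In 369 of them the gene alignment ended at the end of exon 1 of 22 (chr6:112946430), no read continued past that point, and 227 other reads ended there too. Of the reads of the gene with any quality tag, 45 of 75 were joined at D0, 15 of 19 at D2, 117 of 199 at D4 and 195 of 319 at D6. The joined reads made up 60.8% of the total over all days, so the total is no separate measure of the gene. Only 9 reads of the gene passed the quality tag. In 85.8% of the joined reads the LTR alignment began within 2 bases of the edge of the copy.

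Without Srgap3, reads joined to a gene were at 320 ± 4.40 CPM at D0 and 222 ± 35.5 at D6, and every D6 library (262, 197 and 206) was below every D0 library (316, 319 and 325). The near-level total of gene-joined reads thus summed a gene that was higher at D6 and others that were together lower. Their share of the LTR reads still went from 15.6% ± 0.55 to 33.9% ± 2.73.

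The next genes by joined reads differed from Srgap3 in where the LTR part began. Mars, a methionyl-tRNA synthetase, had 142 joined reads, of which 137 ended at exon 11 of 22, beside 157 reads that continued through that exon end. Its LTR part began at a median of 3 bases, within 2 bases of the start in 11.3% of reads and at 15 to 23 bases in none. Ptbp2, a splicing regulator of neurons, had 125, with 124 at the end of exon 2 of 14 and 55 reads continuing, and its LTR part began at 15 to 23 bases in 96.8%. Mtf2, a Polycomb-associated protein, had 74 joined reads with the LTR part at 15 to 23 bases in all of them. Reads joined to Mars were at 42.7 ± 10.1 CPM at D0 and 16.7 ± 2.69 at D6, and those joined to Ptbp2 at 15.04 ± 6.69 and 33.2 ± 4.62. Kept reads of the genes themselves differed in the same directions, by -1.65 for Mars and 0.95 for Ptbp2 at D6 (log2).

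Genes with fewer joined reads also differed in this place. Thada (67 reads), Cdc25b, a phosphatase that activates cyclin-dependent kinases (60), and Surf4, a cargo receptor of the endoplasmic reticulum (43), began at the first bases in 73.1% to 88.3% of reads. Thsd4 (36), Spty2d1 (34) and Slc10a7 (31) began at 15 to 23 bases in 91.2% to 100% of theirs. For Thsd4 and Spty2d1 no read continued past the joined exon end. Fabp5, a fatty acid binding protein, lay at the other extreme, with 11 joined reads at the end of exon 3 and 6994 reads that continued.

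Poly(A) tails of both names were longer than those of nuclear transcripts in all 12 libraries. This was not particular to them, since IAPLTR1_Mm was also longer in all 12, at 112 ± 6.51 nt at D0 and 119 ± 3.94 nt at D6 (SD, n = 3). The median tail of ERVB7_1-LTR_MM was 128, 123 and 129 nt in the D0 libraries and 109, 118 and 118 nt at D6, and that of nuclear transcripts was 103 ± 2.67 nt and 102 ± 1.03 nt (SD, n = 3). RLTRETN_Mm was at 129 ± 7.06 nt at D0 and 122 ± 6.09 nt at D6. The difference between days was -12.0 nt for ERVB7_1-LTR_MM (no overlap, exact permutation p = 0.10) and -6.46 nt for RLTRETN_Mm (overlap, p = 0.20, exact permutation), the latter between -10.5 nt (without D0 replicate 2) and -4.29 nt (without D0 replicate 3) when 1 library was left out. The difference turned to 5.99 and 19.1 nt without the reads joined to a gene.

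The kinds of read differed in tail length. Reads with an internal line had library medians of 131, 123 and 135 nt at D0 and 149, 154 and 158 nt at D6, a difference of 24.1 nt without overlap (exact permutation p = 0.10). By name, the difference was 41.5 nt for RLTRETN_Mm (no overlap, exact permutation p = 0.10) and 9.32 nt for ERVB7_1-LTR_MM, whose D6 medians of 112, 146 and 160 nt overlapped with D0 (exact permutation p = 0.60). D6 replicate 1 was the lowest of its day for ERVB7_1-LTR_MM and the highest for RLTRETN_Mm (208, 157 and 149 nt). Without it the differences were 22.9 and 23.2 nt. Reads joined to a gene were at 108 ± 6.61 nt and 103 ± 1.84 nt (exact permutation p = 0.20). The former had the longer median in 12 of 12 libraries (exact sign-flip permutation p = 0.00049, the smallest possible over 12 libraries, with the comparison chosen after the data had been seen). The D6 medians of reads with an internal line rest on 184 reads in all, 112 of ERVB7_1-LTR_MM and 72 of RLTRETN_Mm.

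No tail class was called. The share of tails of 30 to 90 nt differed by 6.36 percentage points between D6 and D0 for ERVB7_1-LTR_MM (adjusted p = 0.20 and unadjusted p = 0.012, limma) and by -0.85 for RLTRETN_Mm, and the share under 30 nt by 0.65 and 0.0090. Over 4905 genes and names, 3.26% were called for the class of 30 to 90 nt and 1.28% for tails under 30 nt.

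**Figure D5:**
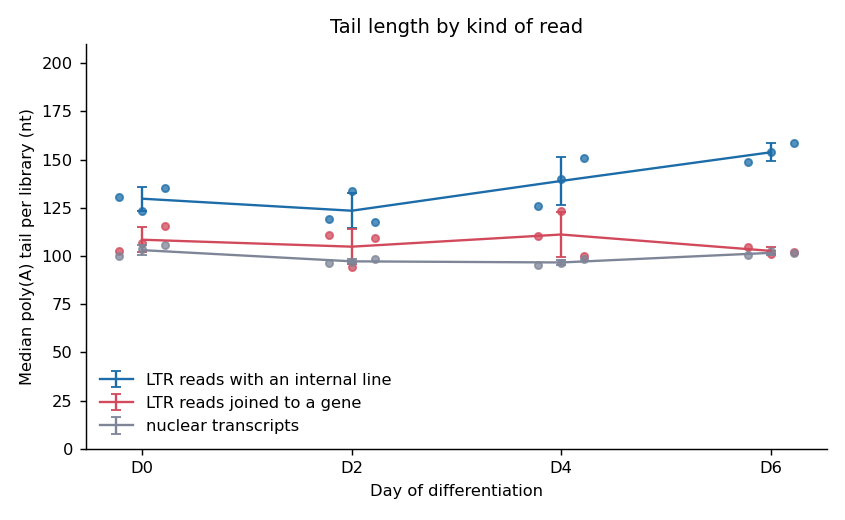
Median poly(A) tail in nt per library by day for LTR reads with an internal line, LTR reads joined to a gene and nuclear transcripts; points are libraries, lines and bars the mean and SD of 3. Reads with an internal line lay above those joined to a gene in all 12 libraries and reached 154 nt at D6, against 103 nt.

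The genes that keep such retroviruses silent were read in the same libraries. KRAB zinc finger proteins bring TRIM28 and the histone methyltransferase SETDB1 to the LTR, and DNA methyltransferases hold the silent state. Of 30 genes on this list 27 could be tested, and at D6 3 rose, 8 fell and 16 were not called, with a median of -0.24 (log2) against 0.04 over all genes and names. The background at D6 was 19.7% called higher and 17.9% called lower. At D2 0 rose, 2 fell (Dnmt3a and Dnmt3b) and 25 were not called. At D4 1 rose, 6 fell and 20 were not called. Of all genes and names, 5.44% were called lower at D2 and 12.3% at D4.

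Trim28 fell from 457 ± 27.1 CPM at D0 to 262 ± 21.3 at D6 (log2 -0.79 ± 0.13, adjusted p = 1.47e-06, limma-voom), and was not called at D2 or D4 (log2 -0.20 and -0.25). Setdb1 was at 32.7 ± 15.1 and 46.6 ± 21.8 and was not called, and Dnmt1, which maintains methylation, was at 98.9 ± 20.7 and 92.5 ± 4.41 and was not called either. The de novo methyltransferases Dnmt3b and Dnmt3a fell, Dnmt3b from 157 ± 26.3 to 2.56 ± 2.23 CPM and Dnmt3a by 0.76 (log2). Uhrf1, Hells, Chaf1a, Chaf1b and Mphosph8 fell by 0.89, 1.68, 0.91, 1.02 and 0.87, and Cbx1, Cbx3 and Atrx rose by 0.68, 0.42 and 0.72. Dnmt3l had no reads.

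The labels of the days were checked against marker genes. All 5 embryonal carcinoma markers that could be tested (of 8, with Dppa5a and Zfp42 at 0 reads) were lower at D6, and their summed level went from 2078 to 2357 CPM in the D0 libraries to 182 to 223 at D6. All 7 neuron markers were higher at D6, with sums of 528 to 556 at D0 and 2581 to 2735 at D6. At D2 their sums of 312 to 497 CPM were below every D0 library, and at D4 they were 1491 to 1642. The single markers were mixed at D2. The neuronal tubulin Tubb3 and the microtubule regulator Stmn2 were called lower (log2 -1.04 and -1.91, adjusted p = 0.0073 and 3.32e-09, limma-voom). Gap43 was called higher (log2 2.07, adjusted p = 7.28e-12, limma-voom), 4 were not called, and the median of the 7 was 0.46. Endoderm markers summed to at most 8.22 CPM in any library, mesoderm markers to at most 2.07, the fibroblast and smooth muscle markers to 24.8 at most, and the glia marker Gfap to at most 3.59. The embryonal carcinoma markers summed to 173 to 246 CPM at D2 and 151 to 178 at D4. The pluripotency factor Sox2 made up most of these sums after D0 (152 ± 27.8 CPM at D2 and 195 ± 20.8 at D6), while Pou5f1 was at 6.71 ± 6.10 CPM at D2, and Lin28a, an RNA-binding protein, was at 53.6 ± 11.7 at D2 and 5.74 ± 2.31 at D6. The part of this marker loss in the fall of the LTR reads was not tested.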

How the data were processed

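Direct RNA libraries of 12 samples (3 per day) were grouped by the sample labels. Base calling by the authors used Guppy, alignment used minimap2 2.20 (version from the submitters' processing notes) against mm10 contigs of transcripts and repeat copies, tail calls used Nanopolish and barcode calls used Deeplexicon. Their deposited table has 1 line per alignment with tail length in nucleotides and start and end positions on the contig. The authors' mapping quality is a score, and the deposited barcode confidence is a fraction per read. The other deposited table gives fold changes and adjusted p-values of the authors' own DESeq2 comparisons and was not used.

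Of 6306434 lines, 69 were malformed and 289260 had no barcode. PASS lines numbered 4673531, of which 4320171 were kept after mitochondrial, pseudogene and spike-in lines were set aside. Counting error grows as depth falls, and 465 of the 480 copies had under 30 reads and were not tested. Reads were tallied per gene or repeat name and per contig. limma-voom (limma 3.58.1, R 4.3.3) was fitted to all 12 libraries with TMM factors (30% and 5% trimmed), a pseudocount of 0.5 reads and a minimum of 30 reads, with Benjamini-Hochberg adjustment and a threshold of 0.05. CPM used the TMM-scaled library size. Tail classes were compared with limma on percentages weighted by reads, for genes and names that averaged 10 or more reads. Values per library were set against each other with exact permutation tests (two-sided). Gene structures came from GENCODE vM21, which matched 97.8% of 42061 transcripts by identifier, 99.95% of them at the same coordinates. Copies to be named were the 12 of each name with most reads and those with the largest called changes. The members, gene lists and tests were chosen with earlier results of these data known. The values of 1 gene with joined reads are not reported here. The steps were tested on simulated data. Software was Python 3.11.15 with pandas 2.3.3, numpy 2.4.6 and matplotlib 3.10.9.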

Additional observations from a re-analysis of the deposited data

How the results depend on the processing

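Both names stayed lower and called in all 132 alternatives over D2, D4 and D6 (scaling, filters, mapping quality, quality tags, barcode confidence, 1 line per read, each library left out, the replicate block, and gene-joined reads left out, of which the last was chosen after seeing the data). Without a filter on low counts, copies of 480 called lower numbered 18 at D2, 22 at D4 and 36 at D6 (4.01%, 3.25% and 4.96% of 47502 contigs), and 78 copies were called higher at D2 (31.8% of contigs), where a count of 0 plus the pseudocount is a higher rate in a shallow library. With mapping quality of at least 10, no copy of 8 was called lower at D2 (limma-voom, 2 at an unadjusted p under 0.05). Leaving out 1 library, the lower calls ranged from 0 to 5 at D2, with 0 without D2 replicate 2. The median tail difference turned to 5.99 nt (ERVB7_1-LTR_MM) and 19.1 nt (RLTRETN_Mm) without gene-joined reads, and the cause was not tested. With mapping quality of at least 10, the differences in tails of 30 to 90 nt and under 30 nt were -2.75 and -0.37 percentage points for ERVB7_1-LTR_MM, and the under 30 nt difference was -0.54 for RLTRETN_Mm. With class limits of 25 and 95 nt the middle class of RLTRETN_Mm differed by 1.40 points. Leaving out 1 library, its middle class ranged from -1.91 to 0.16 points and its tails under 30 nt from -0.27 to 0.64. None of these tail differences was called in any setting, and the causes were not tested.

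Same-numbered replicates of D0 and a later day correlated at -0.16 to 0.32 over 1073 genes, and in no such comparison did every pair exceed 0.1, so the numbers were not read as pairs with D0. Among the later days the correlations ran from -0.058 to 0.36, and all 3 pairs of D4 and D6, which were not compared with each other here, exceeded 0.1 (0.25, 0.20 and 0.13). Not every library correlated best with its own number. With the replicate block the D6 changes were -1.59 (ERVB7_1-LTR_MM) and -1.79 (RLTRETN_Mm), the copies called lower at D6 were 11, and tails under 30 nt of RLTRETN_Mm differed by -0.0041 points. No call changed with the block. With library totals alone, 10.3% of contigs were called lower and 21.1% higher at D6, against 14.7% and 15%.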

Other observations

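Of the 26 genes with 10 or more joined reads, Olfr318 (29 reads), Foxj2 (22) and Ina (18) had no alignment ending at an exon end. The Olfr318 reads numbered 21 at D0 and 3 at D6 and began at the first LTR bases in 96.6%, and the Ina reads numbered 0 at D0 and 9 at D6. Joined reads of Olfr318, Foxj2 and Ina had median tails of 144, 151 and 119 nt, and those of the rest of the 26 ranged from 61.7 nt (Fabp5) to 136 nt (Ash1l). In reads with an internal line, the internal contig and the LTR copy lay within 10000 bases of each other in 62 of 2526 (2.45%), and in 4.92% of 1891 such IAPLTR1_Mm reads.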
